A study of Mus musculus with 6 samples.

Results

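Telomerase is the enzyme that extends chromosome ends. The genes described here are the telomerase RNA gene Terc, the reverse transcriptase gene Tert and Wrap53, whose protein brings the RNA to Cajal bodies. With them are the genes of the H/ACA ribonucleoprotein that holds the RNA (Dkc1, Nop10, Nhp2 and Gar1). The last 3 are genes of the shelterin complex (Terf1, Terf2 and Pot1a). All 10 genes were taken by symbol, as every probe set annotated to 1 of them. Each gene had exactly 1 probe set, which gives 10 of the 35556 probe sets and 10 of the 19938 named genes, and no probe set annotated to several genes named any of them. The list was chosen by gene role with earlier diabetic minus normal differences of these arrays in view. Those differences are therefore a description here and carry no test.

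The cells were keratinocytes captured by laser from the tip of the migrating epithelial tongue in mouse skin wounds at day 3, located by E-cadherin staining. The diabetic group was 3 arrays from mice made diabetic by feeding them much fat and fructose for 16 weeks from the age of 8 weeks, and the normal group was 3 arrays from mice given a control diet for the same 16 weeks. The labels name no strain, mutant allele or drug in either group, and both groups were wounded. Captured cells of a sample were pooled over its sections. The labels call the arrays of each group biological replicates, but none says that each array came from a separate mouse. The spread given here is therefore that between samples.

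In telomerase, the reverse transcriptase copies a short template within the telomerase RNA onto the chromosome end. The RNA ends in an H/ACA domain, also found in the guide RNAs of pseudouridylation, and dyskerin, NOP10, NHP2 and GAR1 bind that domain in both kinds of particle. Shelterin coats the telomere repeats and regulates the access of telomerase to them. In skin, telomerase activity is known from the proliferating basal layer and the hair follicle, while the RNA and the H/ACA proteins are also made in cells with little telomerase activity.

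Array signals are log2 values, and the arrays were dim. A background limit was set on each array from 1194 chemosensory receptor genes (olfactory and vomeronasal), as their 95th percentile, and it lay between 1.98 and 2.12. A gene at or below it has only a bound on its level there. Of all genes, 17.4% were above it on every array and 51.5% on no array. Of the keratinocyte markers, 3 of 16 were above it on all arrays and 4 on none, and E-cadherin (Cdh1) was under it on every array. In array order by replicate, Krt14, a basal keratin, read 2.20, 2.05 and 1.80 on diabetic arrays and 1.55, 2.07 and 1.73 on normal arrays. Both of these markers were thus at or near background in both groups.

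Gar1 and Nhp2 were the only 2 of the 10 genes above the limit on all 6 arrays. Their promoter sequences are shown because of that, cut to the stretch from 120 to 13 bases before the annotated start (RefSeq, build GRCm38.p6, written 5′ to 3′ on the gene's strand). The Gar1 stretch lies at chr3:129831409-129831516 on the minus strand and the Nhp2 stretch at chr11:51619653-51619760 on the plus strand. Capitals mark matches to an ETS-family motif, CCGGAAGT or its reverse complement ACTTCCGG, and to the GC box GGGCGG or CCGCCC.
Gar1: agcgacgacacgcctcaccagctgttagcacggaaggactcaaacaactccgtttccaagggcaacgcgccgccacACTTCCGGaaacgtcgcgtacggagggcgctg
Nhp2: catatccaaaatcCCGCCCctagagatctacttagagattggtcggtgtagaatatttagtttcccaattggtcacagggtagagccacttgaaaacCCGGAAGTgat

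The ETS motif begins 44 bases before the start in Gar1, on the reverse strand, and 23 bases before it in Nhp2, on the forward strand. Both strands of the 250 bases before each start were searched for this motif, for the E-box CACGTG and for the GC box, 3 motifs that were picked after the sequences and signals had been seen. Of the 10 genes, 8 had an entry in the promoter table, with 10 windows among them. The ETS motif occurred in 2 of the 8, Gar1 and Nhp2, and in 2.88% of the 32851 promoters of the table. The GC box occurred in 3 of the 8, namely Nhp2 (3 matches), Tert (2 matches) and Pot1a (1 match), against 32.7% of all promoters. The E-box occurred in 1, at 1 of the windows of Wrap53, against 6.02%. These counts are of genes, with a match in any window of a gene, whereas the percentages are of single promoter windows. No match overlapped a match to another motif in the stretches shown, and a match is only a run of letters in this window.

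Terc, the RNA template of telomerase (probe set 10500345), was the member whose groups did not overlap. Its signal was 2.25, 2.15 and 2.15 on diabetic replicates 1, 2 and 3, and 1.63, 2.10 and 1.60 on normal replicates 1, 2 and 3. The 3 diabetic arrays lay close together, normal replicate 2 lay just under them, and normal replicates 1 and 3 lay well below. The mean was 2.18 ± 0.053 (SD, n = 3) for the diabetic group and 1.78 ± 0.28 (n = 3) for the normal group. Diabetic minus normal was thus 0.41 (SE 0.14), or 1.33-fold in signal. Leaving out normal replicate 2 gave the widest difference, 0.57, and leaving out normal replicate 3 a difference of 0.32. All 3 diabetic arrays were above their background limit, by 0.26, 0.15 and 0.042, and 0 normal arrays were, although for normal replicate 2 signal minus limit was only -0.0098. Limits were 1.98 and 2.01 on diabetic replicates 1 and 2 and 2.11 to 2.12 on the other 4 arrays, and all 3 diabetic signals of Terc also exceeded the highest of them, 2.12. Terc was 1 of 10 members without overlap, where 10.7% of all genes had none, and nothing is read from that count because the list was drawn up with this contrast known. With no normal array above its limit, the normal level is only a bound. This split between the groups depends on the limit. With the 99th percentile of the receptor genes as the limit, Terc was above it on 0 arrays. With their median plus 3 median absolute deviations, Terc was above it on 4 arrays, including normal replicate 2.

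**Figure D1:**
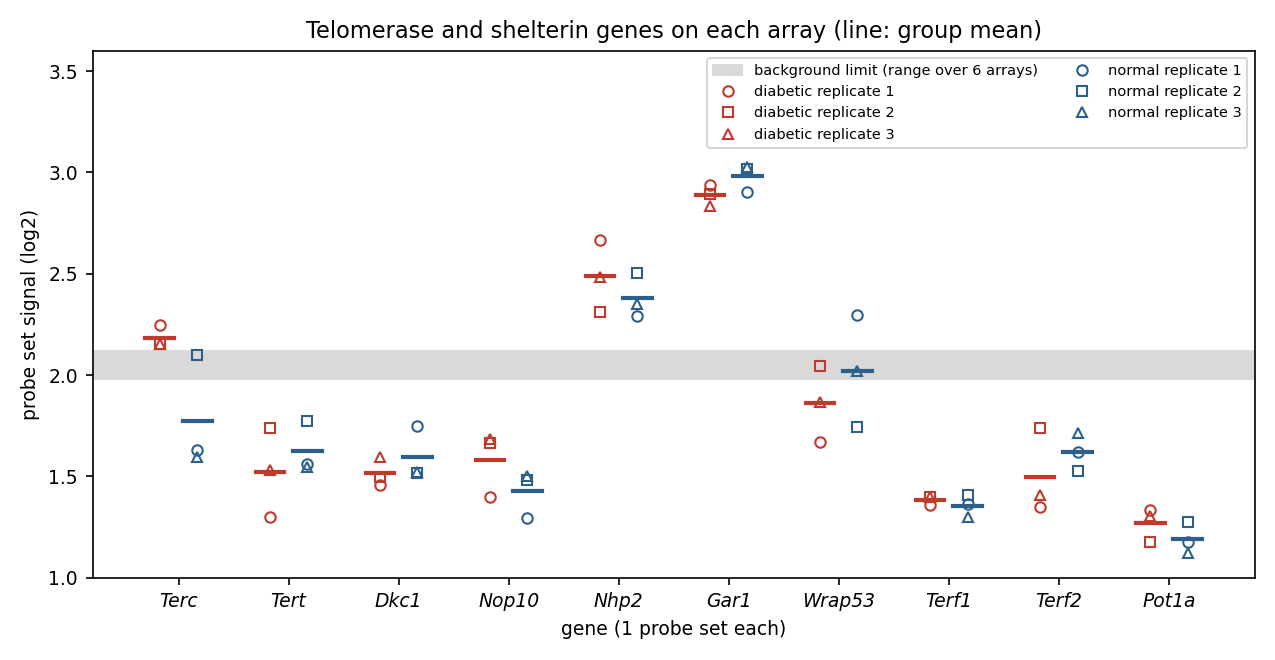
Log2 probe set signal of the 10 genes on each array, with diabetic arrays in red, normal arrays in blue, 1 symbol shape per replicate number, a line at each group mean and a grey band for the range of the background limit (1.98 to 2.12). Gar1 and Nhp2 lie above the band on all 6 arrays, Terc lies above it on the diabetic arrays only, and 6 genes lie below it throughout.

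Tert, the reverse transcriptase (10406086), was under the limit on every array. It read 1.30, 1.74 and 1.53 on diabetic arrays and 1.56, 1.77 and 1.55 on normal arrays. The groups overlapped, replicate 2 was the highest in each group, and the difference was -0.10 (SE 0.13). The probe set therefore gives a bound on Tert and no measured level in either group.

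Among the H/ACA proteins, Gar1 (10502146), a small protein of the catalytic particle, was the steadier of the 2 detected genes. It read 2.94, 2.89 and 2.83 on diabetic arrays and 2.90, 3.02 and 3.03 on normal arrays. The groups overlapped through normal replicate 1, with a difference of -0.095 (SE 0.13). The SD within groups was 0.061, smaller than in 95.5% of all genes.

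Nhp2 (10375880), the H/ACA protein of the L7Ae family, read 2.67, 2.31 and 2.48 on diabetic arrays and 2.29, 2.50 and 2.35 on normal arrays. Diabetic replicate 1 was the highest, the ranges overlapped, and the difference was 0.10 (SE 0.14), which fell to 0.014 without that array.

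Dkc1 (10600485) encodes dyskerin, the pseudouridine synthase, and Nop10 (10474541) the small protein that joins dyskerin to NHP2. Dkc1 read 1.46, 1.50 and 1.60 on diabetic arrays and 1.75, 1.52 and 1.52 on normal arrays, and Nop10 read 1.40, 1.66 and 1.69 on diabetic arrays and 1.29, 1.48 and 1.50 on normal arrays. Every one of these signals was under the limit of its array. Dkc1 was highest on normal replicate 1, and Nop10 was lowest on replicate 1 of each group. The differences were -0.079 (SE 0.11) for Dkc1 and 0.16 (SE 0.12) for Nop10, with overlap in both. The 4 H/ACA protein genes thus had 2 differences above and 2 below 0, with no gap between the groups in any of them.

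Wrap53 (10387492) encodes TCAB1, which brings the telomerase RNA to Cajal bodies. It read 1.67, 2.05 and 1.87 on diabetic arrays and 2.30, 1.74 and 2.02 on normal arrays. It exceeded the limit on 1 array of each group, diabetic replicate 2 and normal replicate 1, and the difference of -0.16 (SE 0.15) was smaller than the group SDs, 0.19 (diabetic) and 0.28 (normal). Wrap53 is a known antisense neighbour of the p53 gene, and no source used here states which strand its probes read.

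The shelterin members were all under the limit on all arrays. Terf1 (10344939) and Terf2 (10581523) encode TRF1 and TRF2, the proteins that bind double-stranded telomere repeats, and Pot1a (10543471) encodes the protein that binds the single-stranded end. Terf1 stayed between 1.30 and 1.41 on the 6 arrays, Pot1a between 1.12 and 1.33, and Terf2 between 1.35 and 1.74. Terf2 was lowest on diabetic replicates 1 and 3 and highest on diabetic replicate 2. The differences were 0.028 (SE 0.092) for Terf1, -0.12 (SE 0.12) for Terf2 and 0.080 (SE 0.092) for Pot1a, and the groups overlapped for all 3.

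**Figure D2:**
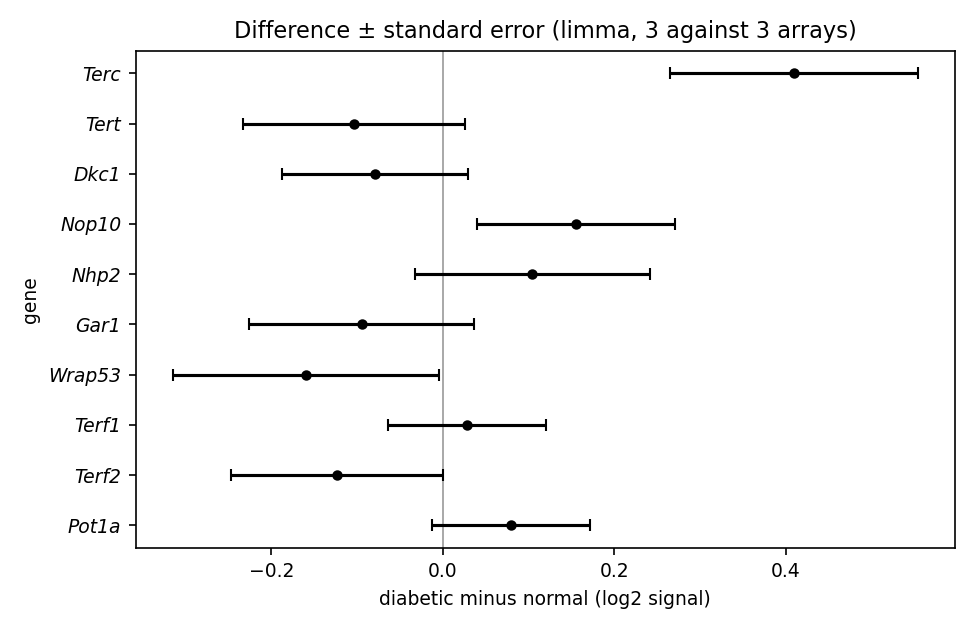
Diabetic minus normal difference in log2 signal for the 10 genes, as a point with limma's moderated standard error (3 against 3 arrays). Terc stands at 0.41, and the other 9 genes lie between -0.16 and 0.16.

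Across the 10 genes, 5 had a higher and 5 a lower mean in diabetic samples, where 48.7% of all genes were higher. Their median difference was -0.025, beside -0.0039 over all genes. With limma and Benjamini-Hochberg adjustment over all genes, 0 of 19938 genes passed an adjusted p under 0.05 (0% called), with a smallest adjusted p of 0.405. Unadjusted, 1109 genes (5.56%) had a p under 0.05, and an ordinary linear model per gene gave 1037 and likewise 0 after adjustment.

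The other 4 shelterin genes were Acd, Tinf2, Terf2ip and Pot1b, and 3 of them had a higher mean in diabetic samples, with a median difference of 0.16. Acd (10581311) encodes TPP1, the shelterin subunit that recruits telomerase. It read 2.30, 2.63 and 2.42 on diabetic arrays and 2.07, 2.25 and 2.25 on normal arrays, and it was above the limit on all arrays but normal replicate 1. Its groups did not overlap (5.02% of all genes were without overlap and higher in diabetic samples), yet the difference of 0.26 (SE 0.13) did not pass in limma (adjusted p 0.893). Pot1b, a second mouse POT1 protein, differed by 0.16, Terf2ip, the RAP1 gene, by 0.16, and Tinf2, which links the TRF proteins to TPP1, by -0.031. Pot1b and Tinf2 were under the limit on every array.

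Genes for the making of the telomerase RNA and particle gave no call. Of 19 listed genes 17 were measured, 7 with a higher and 10 with a lower mean in diabetic samples, 0 at an unadjusted p under 0.05 in either direction and 0 without overlap. Their median difference was -0.0057, and 11 were under the limit on all arrays. The largest differences were those of Pinx1, a telomerase inhibitor (0.20, SE 0.16), Coil, the Cajal body scaffold (0.17, SE 0.14), Nolc1, a chaperone of H/ACA particles (0.16, SE 0.16), and Ptges3, the HSP90 co-chaperone p23 (-0.16, SE 0.14). Ptges3 had 3 probe sets, and another of them (10367100), above the limit on 1 array, differed by -0.47 with no overlap between the groups. Naf1, which assembles H/ACA particles before Gar1 takes its place, differed by 0.10, and Shq1, the chaperone of dyskerin, by 0.11.

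Genes of telomere end replication and processing gave no call either. All 22 were measured, 11 higher and 11 lower, with 0 at an unadjusted p under 0.05 and a median of -0.0013, and 18 of the 22 were under the limit on all arrays. Daxx, a histone H3.3 chaperone of telomeres, read 2.54, 2.17 and 2.90 on diabetic arrays and 2.10, 2.28 and 2.33 on normal arrays, a difference of 0.30 (SE 0.17) with overlap. Dclre1b, the Apollo nuclease gene, differed by -0.26 (SE 0.13), and Atm, the damage kinase gene, by -0.14. Atrx, the partner of Daxx, differed by 0.13 and Fen1, the flap nuclease gene, by -0.19. Atrx and Fen1 were the 2 genes of this list without overlap, where 10.7% of all genes were, and both were under the limit on every array.

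Of 14 regulators of Tert transcription 13 were measured, 7 higher and 6 lower, with a median of 0.062, and 6 were above the limit on all arrays. Mxd1, a MAX partner that represses MYC targets including Tert, read 2.31, 2.25 and 2.26 on diabetic arrays and 2.65, 2.70 and 2.39 on normal arrays. Every array was above its limit, every diabetic array lay below every normal array (5.66% of all genes were so), and the difference was -0.31 (SE 0.13). It was the only regulator at an unadjusted p under 0.05, where 2.92% of all genes were lower at that level, and it did not pass after adjustment (limma adjusted p 0.883). Myc itself was under the limit on every array and differed by -0.12 (SE 0.11). Tcf3, an E-box factor, differed by 0.33 (SE 0.16), Sp1, a GC-box factor, by 0.24 (SE 0.18) and Klf4 by 0.17 (SE 0.15), all with overlapping groups. Gabpa, an ETS-family factor, was under the limit on every array.

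Since telomerase is tied to dividing cells, proliferation genes were set beside it. Of 15 genes 14 were measured, 5 higher and 9 lower, 0 without overlap and 0 at an unadjusted p under 0.05, with a median of -0.035. Birc5 differed by -0.20 (SE 0.18), carried by 2.13 on normal replicate 1 against 1.37 and 1.42 on the other normal arrays. The helicase gene Mcm2 was the only one above the limit on all arrays and differed by -0.031, while Rrm2 differed by 0.15, Mcm4 by 0.14 and Mcm5 by 0.14.

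Short structural RNAs were set beside Terc, which like them is no spliced messenger RNA. All 7 measured genes of this list had a higher mean in diabetic samples, with a median of 1.52, and 4 had an unadjusted p under 0.05, where 2.64% of all genes were higher at that level. None passed after adjustment (smallest limma adjusted p in the list 0.780), and 1 of the 7, Snord118, was without overlap, where 10.7% of all genes were. Snord118 was above the limit on 2 diabetic and 0 normal arrays. 7SK (Rn7sk) read 8.02, 7.78 and 6.12 on diabetic arrays and 4.94, 6.15 and 4.66 on normal arrays. Its other, dimmer probe set (10595140) read 6.79, 4.12 and 5.47 on diabetic arrays and 3.76, 4.04 and 3.80 on normal arrays, without overlap. Normal replicate 2 was the highest normal array for 7SK, Rpph1 (the RNase P RNA gene), Rny1 and Rmrp, as it was for Terc, but normal replicate 1 was the highest for Rny3 and Snord118 and normal replicate 3 for Vaultrc5. The differences were 2.06 for 7SK, 2.01 for Rny1, 1.86 for Snord118, 1.52 for Rmrp, 0.68 for Rpph1, 0.19 for Rny3 and 0.10 for Vaultrc5. The list's median was 0.61 without diabetic replicate 1, which was the highest diabetic array for all 7 RNAs and for Terc. The part of the short RNA signals in the Terc difference was not tested. These genes were known from earlier results to differ and are no independent support.

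**Figure D3:**
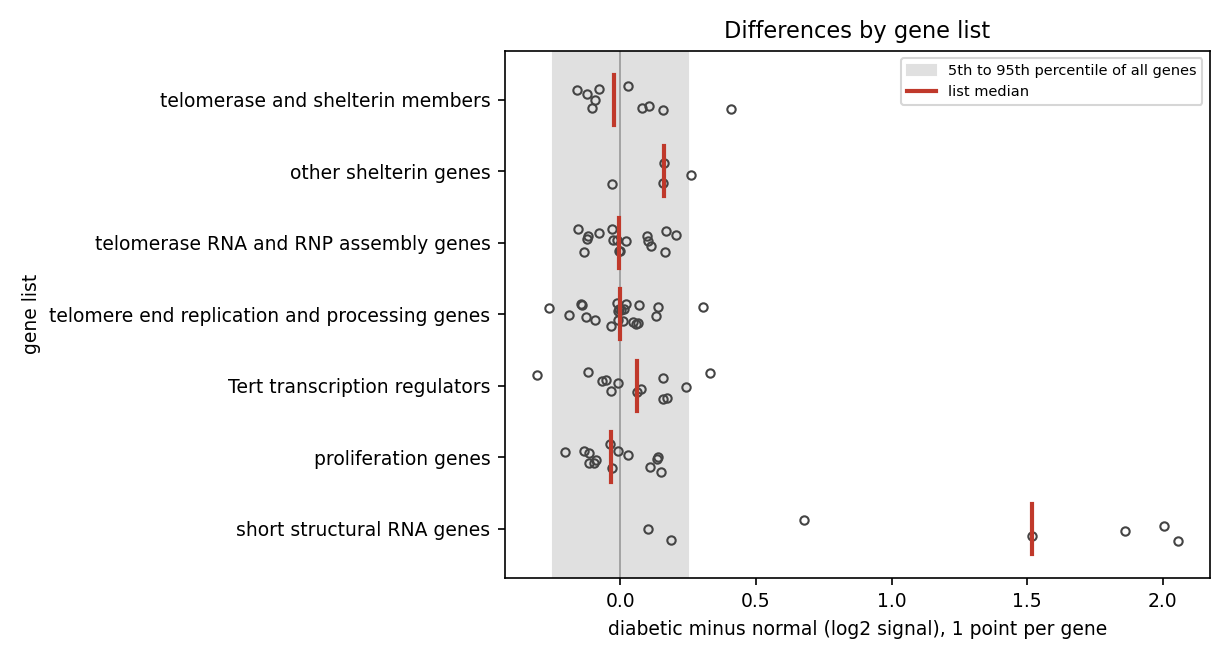
Diabetic minus normal differences in log2 signal, 1 point per gene, by gene list, with the list median in red and a grey band from the 5th to the 95th percentile of all genes (-0.25 to 0.25). Terc is the only one of the 10 genes outside the band, and the short structural RNAs reach 2.06.

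Markers of other cells were compared on the same arrays. The summed linear signal of 12 skeletal muscle markers ran from 66.2 to 71.6 on diabetic arrays and from 59.9 to 65.8 on normal arrays, and that of 8 fibroblast markers from 41.3 to 48.8 and from 38.7 to 40.7. Both sums were higher on every diabetic array, as Terc was. The muscle list had 5 and the fibroblast list 3 markers above the limit on all arrays, so the sums also held signals near background. Of the muscle markers, 9 had a higher and 3 a lower mean in diabetic samples, and of the fibroblast markers 7 and 1. The summed keratinocyte signal went the other way, at 67.7 to 69.8 on diabetic arrays and 70.2 to 81.0 on normal arrays. That list was mixed, with 10 markers lower and 6 higher in mean in diabetic samples. Only 3 of its 16 markers were above the limit on all arrays, so much of the sum came from signals near background. Sums for neutrophil, macrophage, lymphocyte and endothelial markers overlapped between groups, and 7 of 8 macrophage and 6 of 8 measured lymphocyte markers were under the limit on all arrays. The part of these markers in the Terc difference was not tested, and in pooled captured cells fewer cells of a type and less RNA per cell cannot be told apart.

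The pattern of Terc over the arrays was compared with that of 6349 genes above the limit on at least 3 arrays, by the root mean square distance between mean-centred log2 signals over the 6 arrays. The nearest were Col14a1, a fibril-associated collagen gene (distance 0.059), Tmem102 (0.077), Adamtsl5 (0.085), Pramel32 (0.089) and Plbd2 (0.089), against a median distance of 0.29. Col14a1 read 2.31, 2.30 and 2.26 on diabetic arrays and 1.84, 2.21 and 1.83 on normal arrays. Like Terc, all 5 had normal replicate 2 far above normal replicates 1 and 3, which follows from choosing them by their distance to Terc. None of the 5 belongs to the telomere lists. Most genes of those lists were above the limit on too few arrays to be ranked, so nothing is read from their absence. For Gar1, the brightest other member, the nearest were Pfpl (0.023), Lsm4, a U6 RNA-binding protein gene (0.025), Kirrel (0.028), Tnfaip1 (0.029) and Clec2i (0.030), against a median of 0.18. Because Gar1 hardly varied, these are genes that also hardly varied.

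**Figure D4:**
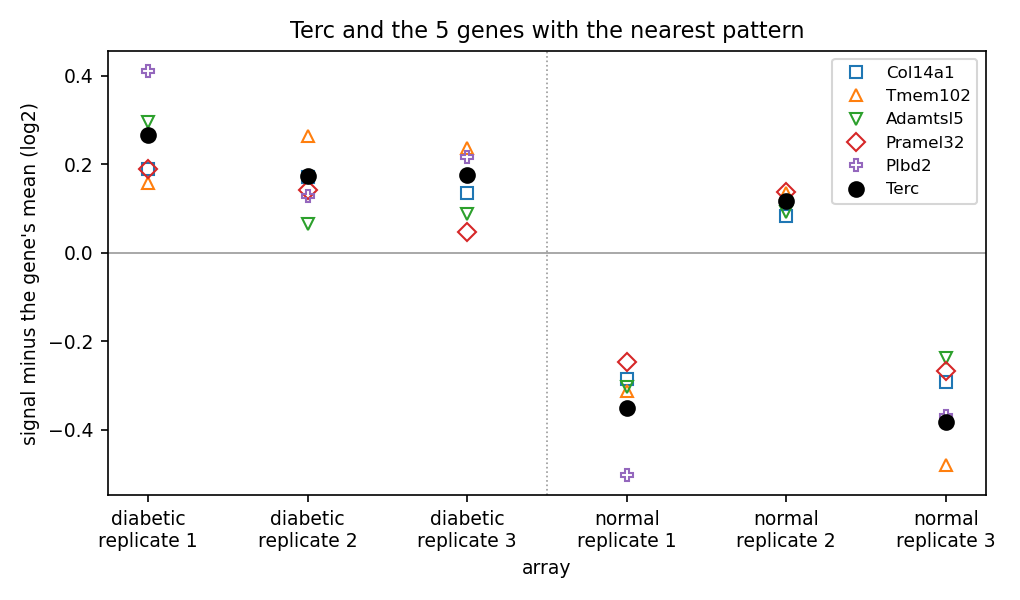
Log2 signal minus each gene's mean over the 6 arrays, for Terc (black) and the 5 genes with the smallest root mean square distance to it, by array. All 6 genes are low on normal replicates 1 and 3 and near the diabetic arrays on normal replicate 2.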

How the data were processed

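The authors deposited log2 probe set signals for 35556 probe sets on 6 arrays, and per the submitters' processing notes Partek was used. How they were normalized and summarized is not stated in those notes. The log base was taken from the size of the values. Gene names came from the array's annotation table (21789 with 1 gene, 1621 with several, 12146 unlisted) and symbols updated through a GRCm38.p6 gene table, which matched 21698. The probe set with the highest mean stood for a gene, giving 19938 genes. limma 3.58.1 in R 4.3.3 compared the groups (group only, intensity trend, Benjamini-Hochberg over all genes). The fit was also run on simulated data with changes larger than that of Terc, so its power at that size was not tested. SE is limma's moderated standard error.

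The members, gene lists and background limit were chosen with earlier results of these data known. From each telomere, regulator, proliferation and short RNA list the 4 largest absolute differences and any gene without overlap were named, and marker and Snora genes were named with their values known. Genes named beyond that, because of their roles or after their values were seen, were Myc, Gabpa, Naf1, Shq1, Mcm2 and the rest of the short RNA list. Promoter sequences and their matches are from RefSeq. Replicate numbers did not pair the samples (correlations of deviations between same-numbered arrays -0.018, 0.0078 and 0.014). The number of arrays limits the precision.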

Additional observations from a re-analysis of the deposited data

How the results depend on the processing

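The direction held in every alternative tried for 8 of the 10 genes. The exceptions were Tert, which was 0.0088 without diabetic replicate 1, and Terf1, which was -0.00098 without normal replicate 3. Several alternatives could not change a member's difference. These were the variance models (no intensity trend, or an ordinary linear model), the replicate block, averaged probe sets and the filter on the limit. With each array left out in turn, the Terc difference ran from 0.32 to 0.57. Member genes without overlap then numbered 1 to 4 and the share of all genes without overlap was 19.6% to 22.4%, since fewer arrays overlap less often. Over the same settings 0 to 2 genes of the series passed the adjusted threshold in limma, 2 without diabetic replicate 2 and 1 without diabetic replicate 3, and none was a member. The median ran from 0.61 to 1.83 for short structural RNAs and from -0.023 to 0.060 for particle assembly genes. The unadjusted count was 363 among genes above the limit on at least 3 arrays, with fewer genes tested. With the 99th percentile of the receptor genes as the limit, 0 of the 10 genes were above it on all arrays, Gar1 was on 5 and Terc on 0. With the median of the receptor genes plus 3 median absolute deviations, 2 genes were above it on all arrays, Gar1 and Nhp2, and Terc was on 4. With the replicate number as a block, 0 genes passed. The Terc difference stayed 0.41 there, which the balanced design fixes in advance. Quantile normalization and median centring kept 1 member without overlap. The variance models, array weights and averaged probe sets leave the member signals as they are, so they could not change that count. Near background, a difference in signal may be smaller than that in RNA.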

Other observations

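Guide RNAs of the H/ACA class, to which the proteins made from Dkc1, Nop10, Nhp2 and Gar1 also bind, were read from all 20 genes with a Snora symbol, a list chosen after the data were seen. Of the 20, 13 had a higher and 7 a lower mean in diabetic samples, with a median difference of 0.072, and 8 exceeded the limit on every array. At an unadjusted p under 0.05 there were 2 higher and 2 lower (2.64% and 2.92% of all genes), and 0 passed in limma after adjustment (smallest adjusted p 0.780). Snora74a read 4.47, 4.0 and 3.92 on diabetic arrays and 3.36, 3.45 and 3.36 on normal arrays, a difference of 0.74 (SE 0.17). Snora21 read 2.44, 2.22 and 2.38 on diabetic arrays and 2.59, 2.94 and 2.70 on normal arrays, a difference of -0.40 (SE 0.14). Snora74a and Snora21 were above the limit on every array. The groups did not overlap for 5 of the 20, where 10.7% of all genes were without overlap. These were Snora74a, Snora52 (0.70, SE 0.21) and Snora62 (0.31, SE 0.17) with higher, and Snora21 and Snora2b (-0.18, SE 0.082) with lower signal in diabetic samples. Snora62 was above the limit on every array, Snora52 on 1 and Snora2b on none. The class thus differed from the short structural RNA list in that its members were found on both sides of 0, a difference that was not tested.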
